A study of Mus musculus with 24 samples.

Results

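The myogenic bHLH factors are the 4 transcription factors Myod1, Myf5, Myog and Myf6, and their RNA was followed here in mouse C2C12 cells, an established myoblast line that fuses into myotubes in culture. The members were every probe set that the array annotation assigns to 1 of these 4 symbols. This gave 5 of the 45101 probe sets and 4 of the 18194 genes that have a probe set of their own. Myod1 (Entrez gene 17927) has 2 probe sets, 1418420_at and 1447675_x_at. Myf5 (17877, probe set 1420757_at), Myog (17928, 1419391_at) and Myf6 (17878, 1419150_at) have 1 each.

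These proteins bind DNA through a basic region and pair through a helix-loop-helix region with E proteins, and the pairs bind the E-box, a short DNA element in the promoters and enhancers of many muscle genes. Myf5 and Myod1 commit cells to the muscle lineage and are made in proliferating myoblasts. Myog, which encodes myogenin, is switched on as myoblasts leave the cell cycle, and myoblasts without it differentiate poorly in the mouse embryo. Myf6, also called MRF4, acts both early in the embryo and in mature fibres. Id proteins bind E proteins without binding DNA and so keep the factors from pairing.

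The cells were grown at 37°C in DMEM with 10% serum and then moved to low serum, and total RNA from 8 time points was hybridised to 24 Affymetrix arrays, with 3 per time point. Day -1 was taken at 50% confluency and Day 0 at 90% confluency, both in growth medium. Day 0.25 (6 hours) and then Days 1, 2, 3, 4 and 5 followed the move to low serum, given as 2% in the labels and differently in the paper. No transgene or added agent is named, and the line itself is the model: it is a mouse line kept in culture, not muscle tissue. There was no parallel culture kept in growth medium, so time, density and serum cannot be told apart after Day 0. The labels do not say whether the 3 arrays of a time point are from different wells. Each p-value is therefore about the spread among arrays, which may be technical, and the small number of arrays limits the precision of each mean.

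The arrays were alike in overall scale, with medians over all probe sets of 3.64 to 3.88 and trimmed means of 144.9 to 155.7. Arrays of the same time point correlated at 0.962 to 0.996 across probe sets, which are not independent replicates. All 6 myoblast markers and all 6 myotube markers looked up (such as Des and Cdh15, or Myh3 and Acta1) reached a level of 100 at 1 or more time points. None of the 3 adipocyte, 4 osteoblast and 4 cardiac markers on the array did, and of the 4 smooth muscle markers 1 did, Smtn. Of 6 fibroblast markers 3 did, and their summed level was 5315 to 6398 on Day 5 and 67.2 to 79.2 on Day -1, carried mainly by Dcn, the matrix proteoglycan decorin. Thy1, Dpt and Tcf21, the other three, stayed at mean levels of 1.93 to 7.01. The part of this rise in the results below was not tested. The summed level of the myoblast markers was also higher, at 15540 to 18960 on Day 5 and 10760 to 12090 on Day -1. Of these markers only Cdh15 averaged lower on Day 5. Most of the myoblast and myotube markers, Des, Cdh15, Myh3 and Acta1 among them, are also on the list of targets read below.

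The promoters of Myog and Myf5 are shown, the only members among the promoter sequences used here. Each stretch runs from 250 bases before the gene's start to 50 after it, from RefSeq on build GRCm38.p6. The Myog stretch is chr1:134289754-134290053 on the plus strand and the Myf5 stretch is chr10:107486085-107486384 on the minus strand. Capitals mark the E-box CANNTG, the MEF2 core (TA, then 4 bases that are A or T, then TA), the MEF3 site TCAGGTT, the TATA box TATAAA and CGACCCGT, a motif that the study put in a reporter with a piece of the Myog promoter. Mutating that motif left the reporter's activity unchanged, and the study judged it to be without a function in this promoter. The E-box and the MEF2 core read the same on both strands, the others were searched on both, and none of the matches overlap.
Myog: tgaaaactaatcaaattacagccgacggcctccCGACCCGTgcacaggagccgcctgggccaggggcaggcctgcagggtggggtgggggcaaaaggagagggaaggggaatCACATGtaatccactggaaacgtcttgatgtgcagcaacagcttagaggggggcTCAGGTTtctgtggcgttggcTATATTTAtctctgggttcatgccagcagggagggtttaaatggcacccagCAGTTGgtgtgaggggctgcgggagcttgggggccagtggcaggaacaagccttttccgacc
Myf5: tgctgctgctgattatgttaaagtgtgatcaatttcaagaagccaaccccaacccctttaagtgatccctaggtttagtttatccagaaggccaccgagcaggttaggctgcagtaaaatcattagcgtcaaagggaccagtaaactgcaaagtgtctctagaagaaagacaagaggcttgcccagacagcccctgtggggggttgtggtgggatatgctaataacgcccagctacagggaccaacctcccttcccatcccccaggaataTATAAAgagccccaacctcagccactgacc
In the Myog stretch, counted from the start site, E-boxes lay at -138 to -133 (CACATG) and -12 to -7 (CAGTTG), the MEF2 core at -63 to -56 (TATATTTA), the MEF3 site at -84 to -78 and CGACCCGT at -217 to -210. The Myf5 stretch held only the TATA box, at 21 to 26. Of 32851 promoters of this length in the table, 72.3% held an E-box, 9.32% the MEF2 core, 4.07% the MEF3 site, 13.6% the TATA box and 0.146%, or 48, CGACCCGT. These are matches of letters in a window, not binding sites. In the RefSeq gene order Myf5 and Myf6 are direct neighbours on mouse chromosome 10, Myod1 is on chromosome 7 and Myog is on chromosome 1.

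Values are intensities as deposited, on a linear scale, and differences are log2 changes of the later over the earlier time point with their standard errors (SE). Levels of different probe sets are not set against each other, since probes differ in brightness. All tests are limma's moderated test, adjusted by the Benjamini-Hochberg method over every probe set with a mean level of at least 100 at 1 or more time points (13766), and a change was called at an adjusted p under 0.05. Day 2 over Day 1 was fitted on its own 6 arrays over 12649 probe sets. The main probe sets of Myod1, Myf5 and Myog passed this filter. The second Myod1 probe set and Myf6 did not.

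Myf5, the earliest of the 4 factors in the embryo, was at an intermediate level in growing myoblasts, was lowest 2 days after the move to low serum and had its highest mean on Day 5. On Day -1 the 3 arrays read 671, 583 and 636, on Day 0 806, 840.5 and 1044, on Day 0.25 858, 998 and 851, and on Day 1 974, 981 and 1008. On Day 2 they read 457, 526 and 472, on Day 3 711, 555 and 563, on Day 4 839, 1040.5 and 1023, and on Day 5 924, 1181 and 1461. All 3 arrays of Day 2 lay below every other array of the series. From low to high the means ran through Days 2, 3, -1, 0, 0.25, 4, 1 and 5. In that order Day 3 overlapped with Day -1, and each neighbouring pair from Day 0 up to Day 5 overlapped. The arrays of Day 5 spread most, with a coefficient of variation of 22.6%, against 1.80% on Day 1.

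Myod1, the factor whose forced expression turns fibroblasts into muscle cells, varied least of the 3 members that could be tested. Its arrays read 658, 657 and 727 on Day -1, 855, 844 and 888 on Day 0, 939.7, 968 and 906 on Day 0.25, and 931, 961 and 975 on Day 1. They read 973, 1142 and 956 on Day 2, 1214, 1086 and 1201 on Day 3, 1195, 1013 and 1196 on Day 4, and 1074, 969 and 1151 on Day 5. The 3 arrays of Day -1 lay below all others, and the 3 of Day 0 below all later ones. From Day 0.25 on, neighbouring time points in the order of the means all overlapped. From low to high the means ran through Days -1, 0, 0.25, 1, 2, 5, 4 and 3, and the mean of Day 3 was 1.71-fold that of Day -1. The second Myod1 probe set, 1447675_x_at, read 1.80 to 1.86 on all 24 arrays, at the 10.1 to 10.7 percentile of its arrays, and gives no second reading of this course.

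Myog was the member with the widest range, with a mean of 10049.5 on Day 4, its highest, and of 404 on Day -1, its lowest. Its arrays read 485, 319 and 406 on Day -1, 2698, 2577 and 2588 on Day 0, 2324, 2364 and 2595 on Day 0.25, and 4988, 5206 and 6301 on Day 1. They read 8788, 8139 and 8039 on Day 2, 9625, 9441 and 10779 on Day 3, 10277, 9852 and 10019.8 on Day 4, and 9609, 8917 and 9581 on Day 5. The means fell into 4 tiers whose arrays did not overlap: Day -1, then Day 0 with Day 0.25, then Day 1, then Day 2 to Day 5. Within the last tier Day 2 stayed below every array of the other three, while Day 5 overlapped with Day 3, and Day 3 with Day 4. The RNA is from whole wells, so more cells with Myog and more Myog RNA per cell cannot be told apart, and the same holds for each gene below.

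Myf6 stayed far under the level of 100 throughout, near the middle of all probe sets, most of which read low. It read 2.63 to 4.73 over the 24 arrays, below the array's own median on 21 of 24, with means of 3.10 on Day -1 and 4.04 on Day 0 in growth medium, 3.29 at 6 hours, 3.33 on Day 1, 3.28 on Days 2 and 3, and 3.81 and 3.46 on Days 4 and 5. Its order of means has no neighbours that separate, since every neighbouring pair of time points overlapped. With no level filter, 1 of 10 comparisons was called for it, Day 0 over Day -1 (log2 change 0.38, adjusted p = 0.0150, limma), at levels where a log2 change has little meaning. For the second Myod1 probe set limma called 0 of 10 (2 at an unadjusted p under 0.05).

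**Figure D1:**
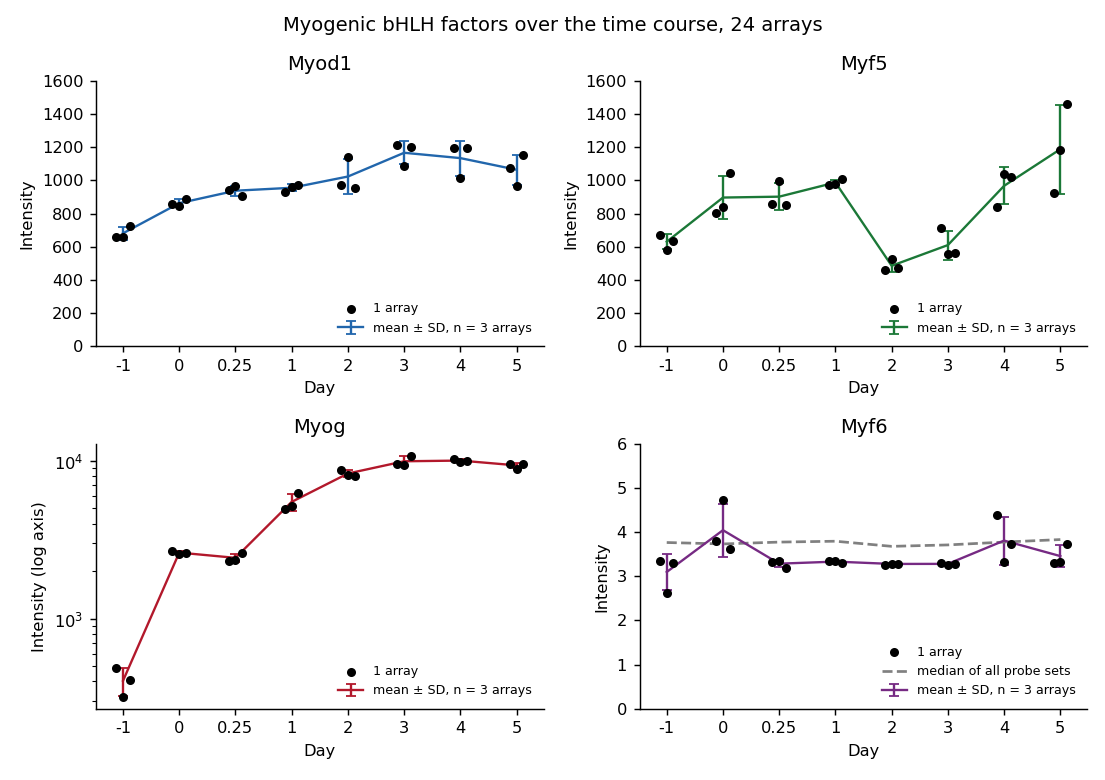
Intensity (vertical axis) of the main probe set of each factor against the day of the time course (horizontal axis), with 3 arrays per time point as points and the mean ± SD as a line; the Myog axis is logarithmic, and the dashed line in the Myf6 panel is the median of all probe sets. Myog sits at 8039 to 10779 from Day 2 on and at 319 to 485 on Day -1, Myf5 has its lowest 3 arrays on Day 2, and Myf6 stays at 2.63 to 4.73.

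Across the 8 time points each of the 3 tested members varied beyond the spread between arrays (limma F test, adjusted p = 8.60e-17 for Myog, 8.77e-07 for Myf5 and 3.20e-06 for Myod1), as did 88.8% of all probe sets tested. The sizes separate them better. The range of the 8 mean log2 levels was 4.66 for Myog, wider than for 96.6% of probe sets, 1.27 for Myf5, wider than for 68.7%, and 0.78 for Myod1, under the median of 0.92 over all probe sets.

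All 3 were higher on Day 0 than on Day -1, while the cells were still in growth medium. Myog averaged 2621 ± 67.0 on Day 0 and 404 ± 82.9 on Day -1 (SD, n = 3 arrays each, here and below), a log2 change of 2.72 (SE 0.12, adjusted p = 5.75e-13, limma), or 6.59-fold with a 95% interval of 5.57 to 7.80. That rise was the 106th highest of 13766. Myf5 averaged 897 ± 129 on Day 0 and 630.0 ± 44.4 on Day -1 (log2 change 0.50, SE 0.14, adjusted p = 0.00817). Myod1 averaged 863 ± 22.7 on Day 0 and 681 ± 39.9 on Day -1 (log2 change 0.34, SE 0.09, adjusted p = 0.00455). The arrays of the 2 days did not overlap for any of the 3. Of all probe sets 23.3% were called higher and 21.7% lower between these days, and the changes of Myf5 and Myod1 were larger than those of 67.6% and 51.4% of probe sets. Without the highest Day 0 array of Myf5, replicate 3, its log2 change was 0.39 and no longer passed (adjusted p = 0.0573).

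None of the 3 passed in the first 6 hours of low serum, where 22.4% of probe sets were called higher and 20.9% lower. The log2 change of Day 0.25 over Day 0 was -0.11 for Myog (95% interval -0.36 to 0.13), 0.01 for Myf5 (-0.29 to 0.32) and 0.12 for Myod1 (-0.07 to 0.31). Between 6 hours and Day 1 Myog alone among them was called. It averaged 5499 ± 703 on Day 1 and 2428 ± 146 on Day 0.25, with no overlap of arrays (log2 change 1.17, SE 0.12, adjusted p = 5.69e-07), in a comparison with 11.6% of probe sets higher and 15.4% lower.

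Between Day 1 and Day 2 Myf5 and Myog moved in opposite directions. Myf5 averaged 485 ± 36.0 on Day 2 and 988 ± 17.8 on Day 1, and its arrays of the 2 days did not overlap. It was 2.04-fold lower on Day 2 (log2 change -1.03, 95% interval -1.26 to -0.79, adjusted p = 0.000738), the 471st deepest fall of 12649 probe sets. Myog averaged 8322 ± 407 on Day 2 and 5499 ± 703 on Day 1 (log2 change 0.60, SE 0.12, adjusted p = 0.00819), also with no overlap, and 76.9% of probe sets had a smaller change in either direction. Myod1 had 1024 ± 103 on Day 2 and 956 ± 22.4 on Day 1, a log2 change of 0.09 with a 95% interval of -0.16 to 0.35. Of all probe sets 19.0% were higher and 17.3% lower.

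Set against Day 0, when the medium was changed, Day 2 had 3.17-fold more Myog (95% interval 2.68 to 3.76, adjusted p = 1.05e-09) and 1.84-fold less Myf5 (log2 change -0.88, SE 0.14, adjusted p = 4.91e-05). Myod1 was 1.18-fold higher (log2 change 0.24, SE 0.09, adjusted p = 0.0291), a call that was lost when Day 2 replicate 2, its highest array that day, was left out (0.16, adjusted p = 0.147), when Day 0 replicate 1 or 2 was left out (adjusted p = 0.0635 and 0.0806), or when the 6 arrays were fitted alone (adjusted p = 0.0974). Here 24.1% of probe sets were higher and 31.6% lower.

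After Day 2 no further step of Myog was called, and Myf5 was higher again by Day 5. Of all probe sets only 3.23% were called higher and 2.95% lower on Day 3 over Day 2, 0.472% and 0.661% on Day 4 over Day 3, and 1.37% and 2.11% on Day 5 over Day 4. In these 3 steps the log2 changes of Myog were 0.26 (adjusted p = 0.216), 0.02 (0.947) and -0.10 (0.687), and those of Myod1 were 0.19 (0.233), -0.04 (0.810) and -0.09 (0.636). Those of Myf5 were 0.32 (adjusted p = 0.206), 0.67 (0.0281) and 0.28 (0.320). The middle one was the 96th highest rise of 13766, with 967 ± 112 on Day 4 and 609.8 ± 87.6 on Day 3. It lost its call when Day 3 replicate 2, Day 3 replicate 3 or Day 4 replicate 3 was left out (adjusted p = 0.184, 0.115 and 0.149), with no level filter (0.0633), on linear intensities (0.0855) and in a fit of its 6 arrays alone (0.176).

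Over the longer span from Day 2 to Day 5 the rise of Myf5 held in every alternative run on single genes. It averaged 1189 ± 268 on Day 5 and 485 ± 36.0 on Day 2, with no overlap (log2 change 1.27, SE 0.14, adjusted p = 1.71e-06), or 2.41-fold with a 95% interval of 1.96 to 2.97, the 224th highest rise. Myog had a log2 change of 0.17 (95% interval -0.07 to 0.41) and Myod1 of 0.06 (-0.13 to 0.25) over the same span. The arrays of Myog on Day 5 nevertheless all lay above those of Day 2, and its difference of 1047 passed on linear intensities (adjusted p = 0.0244). Of all probe sets 13.8% were higher and 21.0% lower. From end to end, Day 5 over Day -1, the 3 members were all called higher, Myog by 23.5-fold (95% interval 19.9 to 27.9, adjusted p = 3.83e-17), Myf5 by 1.86-fold (1.51 to 2.29, adjusted p = 1.60e-05) and Myod1 by 1.56-fold (1.37 to 1.78, adjusted p = 2.85e-06), beside 31.9% of probe sets higher and 38.3% lower. Over the 10 comparisons Myf5 was called in 6, Myog in 5 and Myod1 in 3. The 10 share time points, and this tally does not measure how much each factor changed.

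**Figure D2:**
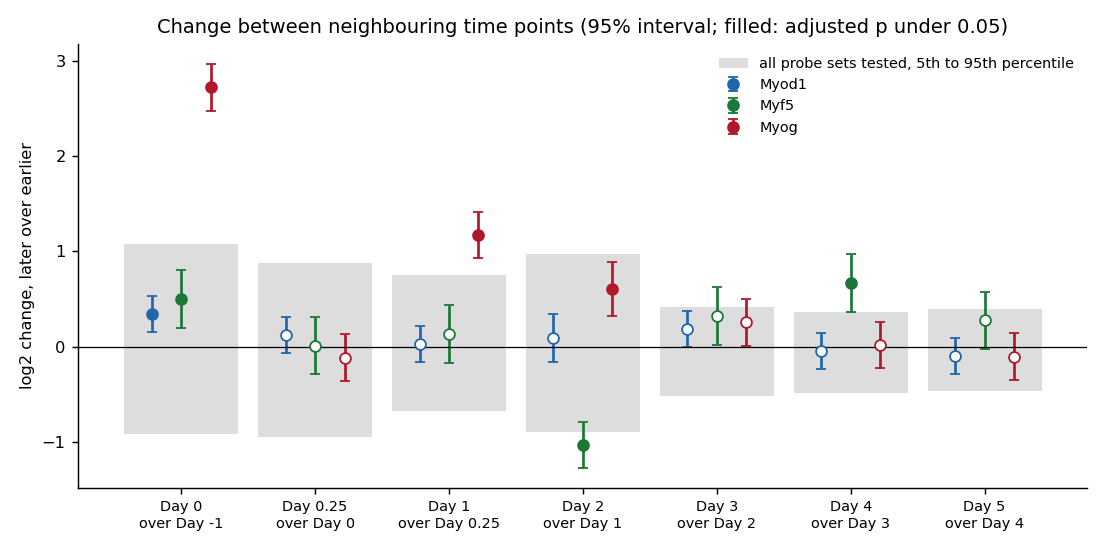
Log2 change of the later over the earlier time point (vertical axis) for Myod1, Myf5 and Myog in the 7 steps between neighbouring time points (horizontal axis), with 95% intervals as bars, filled points where the adjusted p was under 0.05 and grey bands from the 5th to the 95th percentile of all probe sets tested. Myog at 2.72 on Day 0 over Day -1 and 1.17 on Day 1 over Day 0.25 lies above the band, and Myf5 lies below it at -1.03 on Day 2 over Day 1 and above it at 0.67 on Day 4 over Day 3.

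The genes that these factors are known to switch on were read from a list of 32 textbook targets, of which 30 passed the level filter. It includes genes of the contractile apparatus, of the acetylcholine receptor and of cell fusion. On Day 0 over Day -1, 26 of 30 were higher and 1 lower, beside 23.3% and 21.7% of all probe sets. The median log2 change was 3.11, against 0.02 over the 7909 genes tested. Cav3, Myom1 and Myh8, counted as higher, passed the level filter only through Day 2 or later. They averaged 8.85, 25.6 and 18.4 on Day 0 and 2.53, 2.20 and 3.455 on Day -1. At such levels a log2 change has little meaning, and the target counts and medians here and below include these genes. Tnni1, the slow troponin I, averaged 1985 ± 165 on Day 0 and 117 ± 16.7 on Day -1 (log2 change 4.09, adjusted p = 5.07e-15), and Tnnt3, the fast troponin T, 934 ± 149.6 on Day 0 and 38.6 ± 3.67 on Day -1 (4.59, adjusted p = 5.67e-15). The single gene that was lower was Dok7, which helps to build the neuromuscular junction (log2 change -0.39, adjusted p = 0.0481).

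In the first 6 hours most targets then fell while Myog did not pass. On Day 0.25 over Day 0, 18 of 30 were lower and 2 higher, beside 20.9% and 22.4% of all probe sets. Those lower include the dim Cav3, Myom1 and Myh8, at 3.59, 13.3 and 3.94 on Day 0.25, with the same limit. The median was -0.76, against -0.01 over all genes. Myl4, an embryonic myosin light chain, averaged 261 ± 7.99 on Day 0.25 and 1308 ± 98.0 on Day 0 (log2 change -2.32, adjusted p = 4.24e-07), and Myl1, another light chain, 2699 ± 319 on Day 0.25 and 6175 ± 176 on Day 0 (-1.20, adjusted p = 3.51e-07). Tnnt2, the troponin T of embryonic and cardiac muscle, was among the 2 that rose (0.36, adjusted p = 0.0184), with Dok7 (0.82, adjusted p = 0.000397). The log2 change of Myog in this step was -0.11, inside the interval given above, and the difference between it and the targets was not tested.

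The targets rose again alongside Myog from 6 hours to Day 2. On Day 1 over Day 0.25, 23 of 30 were higher, beside 11.6% of all probe sets, with a median of 1.43, against -0.04 over all genes. Among the 23 were Cav3, Myom1 and Myh8, still under the level of the filter on Day 1 (34.8, 89.7 and 13.3). Tnnt3 averaged 2031 ± 360.4 on Day 1 and 438 ± 30.5 on Day 0.25 (log2 change 2.20, adjusted p = 1.35e-09). On Day 2 over Day 1, 25 of 30 were higher, beside 19.0% of all probe sets, with a median of 0.80, against -0.0006 over all genes. Those with the lowest adjusted p were Myl4, with 6775 ± 490.0 on Day 2 and 2110.0 ± 319 on Day 1 (1.69, adjusted p = 0.000631), and Myom1, a protein of the M-band (2.90, adjusted p = 0.000646). None was lower in either step, beside 15.4% and 17.3% of all probe sets. On Day 2 over Day 0, 27 were higher, beside 24.1% of all probe sets, with a median of 1.70, against -0.07 over all genes.

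Later few targets were called, in steps where few probe sets were called at all. On Day 3 over Day 2, 2 of 30 were higher (3.23% of all probe sets), on Day 4 over Day 3 limma called 0 (1 at an unadjusted p under 0.05), and on Day 5 over Day 4, 3 were lower (2.11% of all probe sets). On Day 5 over Day 2, 3 were higher and 4 lower, beside 13.8% and 21.0% of all probe sets, among them Cdh15, the M-cadherin of myoblast contacts, which averaged 532 ± 155 on Day 5 and 2448 ± 275 on Day 2 (log2 change -2.24, adjusted p = 7.63e-08), and Myh8, the perinatal myosin heavy chain, with 449.7 ± 150.5 on Day 5 and 131 ± 31.3 on Day 2 (1.75, adjusted p = 0.000275). From end to end, Day 5 over Day -1, 29 of 30 were higher and 1, Cdh15, was lower, beside 31.9% and 38.3% of all probe sets. The median was 5.36, against -0.08 over all genes.

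The 3 E protein partners did not move as a group. Tcf3, which encodes E12 and E47, averaged 278 ± 27.2 on Day 5 and 584 ± 59.8 on Day -1 (log2 change -1.07, adjusted p = 7.54e-09), and it was also lower on Day 2 over Day 1 (-0.46, adjusted p = 0.0171). Tcf4, which encodes E2-2, was higher over the same span, with 970.3 ± 175 on Day 5 and 386.5 ± 38.4 on Day -1 (1.32, adjusted p = 3.30e-08), and rose most on Day 1 over Day 0.25 (0.85, adjusted p = 0.000125). Tcf12, which encodes HEB, had a log2 change of 0.37 from end to end that was not called, and was higher on Day 2 over Day 0 (0.54, adjusted p = 0.0249).

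Of 20 genes listed as inhibitors of the factors 11 passed the level filter, and the Id genes among them swung in both directions. Whether each listed gene acts as an inhibitor in these cells was not tested. Id2 averaged 586 on Day -1 and 194.5 on Day 0 in growth medium, 957 at 6 hours and 459 on Day 1, and then 119, 159, 201 and 657 on Days 2 to 5. It was thus highest at 6 hours, lowest on Day 2 and high again on Day 5. The change on Day 0.25 over Day 0 was 4.91-fold (adjusted p = 4.94e-06), that on Day 2 over Day 1 a log2 change of -2.02 (adjusted p = 0.00219), and that on Day 5 over Day 4 1.78 (adjusted p = 0.00233). Id3 averaged 319 on Day -1 and 170.2 on Day 0, 845 at 6 hours and 353 on Day 1, and then 201, 402, 446 and 1151 on Days 2 to 5. It was called higher on Day 0.25 over Day 0 (2.30, adjusted p = 4.96e-05) and on Day 5 over Day 2 (2.63, adjusted p = 1.24e-05), and its log2 change of -0.92 on Day 2 over Day 1 did not pass (adjusted p = 0.0742).

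Other genes on this list went their own ways. Hes6 averaged 766 ± 124 on Day 5 and 203 ± 36.9 on Day -1 (log2 change 1.92, adjusted p = 1.01e-08, limma). From end to end 5 of the 11 were higher and 4 lower, beside 31.9% and 38.3% of all probe sets. Zeb1, a repressor that binds E-box-like sites, was 1412 ± 93.3 on Day 2 and 740.0 ± 9.89 on Day 1 (log2 change 0.93, adjusted p = 0.000908), the 1 of the 11 called higher in that step. Called lower were 5, Hes1, an effector of Notch signalling, among them (-0.92, adjusted p = 0.00295), beside 19.0% of all probe sets higher and 17.3% lower. The median of the 11 was -0.53 in that step, against 0.00 over the 7385 genes tested. Hey1, another Notch effector, averaged 7.65 ± 1.46 on Day 5 and 68.4 ± 8.15 on Day -1, both under the level of 100 (-3.17, adjusted p = 2.00e-09). On Day 5 over Day 2, 4 of the 11 listed genes were higher and 4 lower, beside 13.8% and 21.0% of all probe sets.

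Of 16 upstream and lineage regulators 14 were on the array and 6 passed the level filter, 5 on Day 1 and Day 2. Klf5, a zinc finger factor that works beside Myod1 in C2C12 cells, averaged 1838 ± 353 on Day 5 and 242 ± 46.5 on Day -1 (log2 change 2.92, adjusted p = 1.28e-11). Eya4, a transcriptional coactivator, averaged 1459 ± 30.7 on Day 5 and 94.5 ± 6.88 on Day -1 (3.95, adjusted p = 6.95e-14). Six4, a homeodomain factor that binds MEF3 sites, was higher on Day 0.25 over Day 0 (1.01, adjusted p = 9.11e-06) and lower on Day 2 over Day 1 (-0.62, adjusted p = 0.0224). From end to end 3 of the 6 were higher and none lower, beside 31.9% and 38.3% of all probe sets.

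Of the MEF2 factors and coactivators, which work beside the bHLH factors on muscle promoters, 11 were measured. Mef2c averaged 1865 ± 431 on Day 5 and 116 ± 20.8 on Day -1 (log2 change 4.00, adjusted p = 2.01e-12), and its step on Day 2 over Day 1 was 2.13 (adjusted p = 0.000856). Mef2a was 2638 ± 250.1 on Day 5 and 959 ± 121 on Day -1 (1.46, adjusted p = 1.56e-10), and Mef2d rose on Day 2 over Day 1 (0.87, adjusted p = 0.00331). Prmt5 and Carm1, arginine methyltransferases that act with the bHLH factors, were lower from end to end (-0.65 each, adjusted p = 8.96e-07 and 8.59e-05). In all, 4 of the 11 were higher and 3 lower on Day 5 over Day -1, with a median of 0.02, beside 31.9% and 38.3% of all probe sets and a median of -0.08 over all genes.

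**Figure D3:**
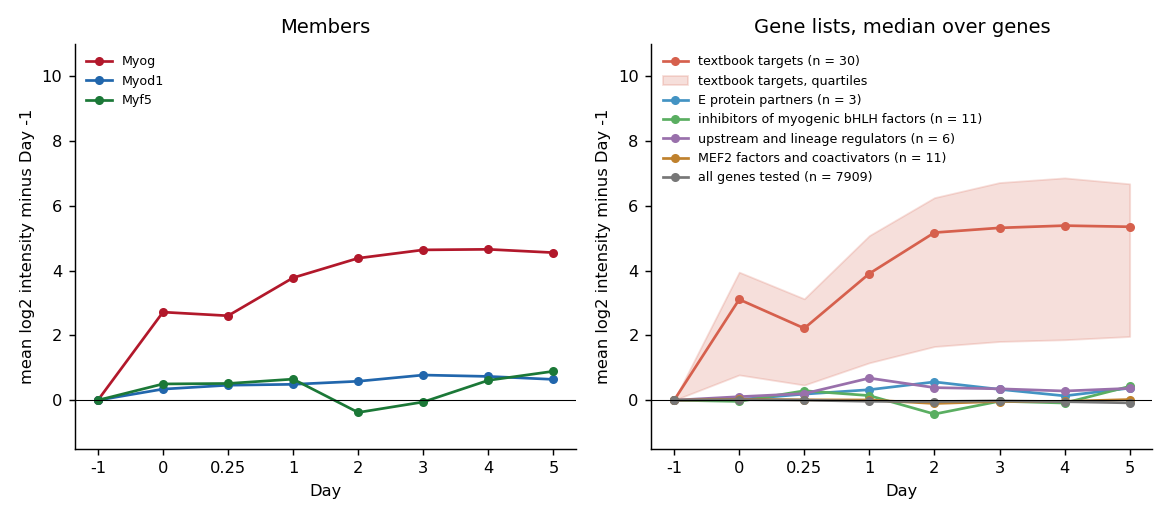
Mean log2 intensity minus that of Day -1 (vertical axis) by day (horizontal axis), for the 3 tested members on the left and as the median over the measured genes of each list on the right, with the quartiles of the textbook targets shaded. Myog and the median of the 30 targets end at 4.56 and 5.36 above Day -1, and at Day 0.25 they stand at 2.61 and 2.22, the targets having dipped from their Day 0 median of 3.11.

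The genes with the courses most like each member were ranked by Pearson r over the log2 levels of the 24 arrays, among 5704 probe sets that varied. These arrays share 8 time points, so r is a description. Closest to Myog were Klhl41 (r = 0.995), which encodes a sarcomere protein of the kelch family, Hjv (0.995), the hemojuvelin gene, Tnnc1 (0.994), a troponin C, Mymk (0.993), the fusion protein myomaker, and Tnni2 (0.993), the fast troponin I. Mymk averaged 66.8 on Day -1 and 901 on Day 0, 501 at 6 hours and 1746 on Day 1, and then 3271, 4102, 4224 and 3696 on Days 2 to 5, with a dip at 6 hours. Closest to Myod1 were Atat1 (0.958), a tubulin acetyltransferase, Apobec2 (0.940), Lzts1 (0.939), Pdlim5 (0.937) and Dapk2 (0.936). The other probe sets of Pdlim5 disagreed with the named one, which is its brightest, with r of -0.795 to 0.753, and one of them averaged 226 on Day 5 and 606.5 on Day -1. Among the members themselves r was 0.916 between Myod1 and Myog, 0.159 between Myod1 and Myf5, and 0.157 between Myf5 and Myog.

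Closest to Myf5 were probe sets of Ywhaz (r = 0.888), a 14-3-3 protein, Dnajc17 (0.879), Rpl37 (0.872), a ribosomal protein, Prdx4 (0.793), a peroxiredoxin, and Ppp1cb (0.790), a phosphatase subunit. For 3 of these 5 genes the named probe set was not the brightest of its gene. The Ywhaz one averaged 286, 29.8, 40.6, 139.7 and 289 on Days 1 to 5. The Ppp1cb one stayed under 100 before Day 5, when it averaged 133. The brightest Ywhaz probe set averaged 7484, 6823, 6727, 5920.0 and 5438 on Days 1 to 5, and its r with Myf5 was -0.30. The brightest probe sets of Prdx4 and Ppp1cb had r of 0.593 and 0.429. So for Ywhaz and Ppp1cb the low readings on Day 2 and Day 3 were much weaker on the brightest probe set. The brightest probe set of Prdx4 had them, with 2078, 1309, 1411, 1687 and 2039 on Days 1 to 5. Another Ywhaz probe set had them too (493, 147, 187, 297 and 448 on Days 1 to 5, r = 0.759). Dnajc17 and Rpl37 each had 1 probe set that reached a level of 100. Myf5 has a single probe set, so its course has no second reading on this array.

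A second ranking used only the brightest probe set of each gene (3456 probe sets, a choice made after these values were seen). Dnajc17 and Rpl37 then led for Myf5, followed by Lin7c (0.789), Spry2 (0.787) and Cbx1 (0.766). A gene already named on its brightest probe set stays in this ranking by construction. That held for 2 of 5 genes for Myf5, 4 of 5 for Myog and 5 of 5 for Myod1, so these counts test nothing. Of the 65 probe sets called higher on Day 4 over Day 3, 34 (52.3%) had, like Myf5, been called lower on Day 2 over Day 1, which is 1.55% of the 2192 lower in that step. Of all probe sets tested, 17.3% were lower on Day 2 over Day 1. The log2 ratio of 3' to 5' control probe sets lay between -0.48 and -0.34 for Gapdh and between 0.18 and 0.34 for Actb over all 24 arrays, a reading of RNA integrity, with means on Day 2 of -0.41 and 0.28 against -0.42 and 0.28 on Day 1. The part of differences between probe sets of a gene in the Myf5 course was not tested. No hybridisation or scan records were used here, so for the low readings of Myf5 on Day 2 and Day 3 the time point and any shared handling of those arrays cannot be told apart.

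**Figure D4:**
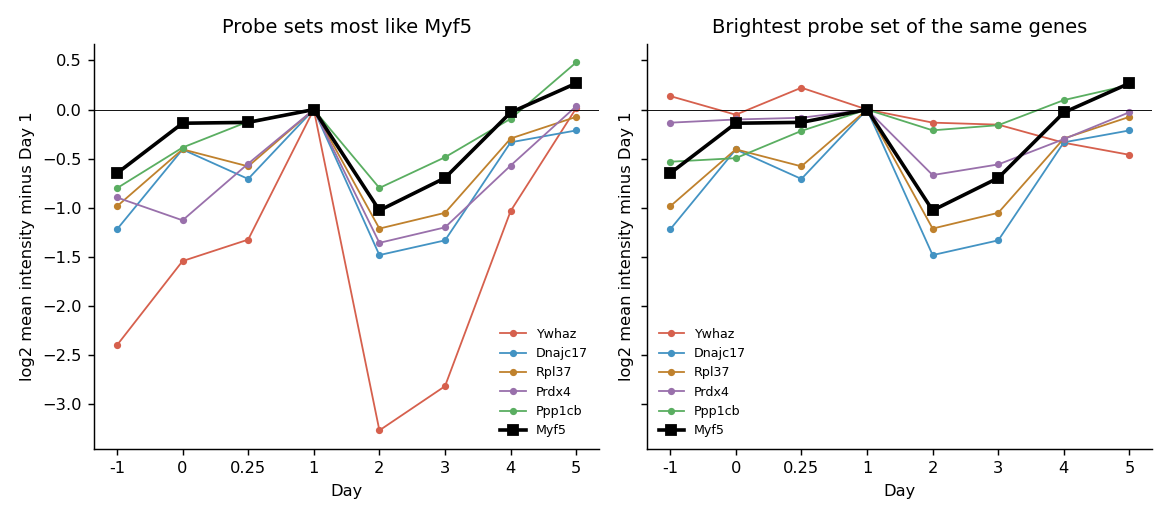
Log2 mean intensity minus that of Day 1 (vertical axis) by day (horizontal axis) for Myf5 (black squares) and its 5 most alike genes, on the probe sets that were most alike (left) and on the brightest probe set of each gene (right). The Ywhaz line has r = 0.888 with Myf5 on the left and -0.30 on the right, and Dnajc17 and Rpl37 are the same probe sets in both panels.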

How the data were processed

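RNA of C2C12 cells was hybridised to 24 Affymetrix mouse 430 arrays. The authors deposited one table of intensity values per probe set on a linear scale. The submitters' processing notes name GCRMA and MAS5, with no versions and no role for each, and the study describes GC-RMA values scaled to a trimmed mean. GC-RMA pulls dim probe sets to a common floor, so low values vary little between arrays. Each probe set was named from the platform annotation: 34958 had 1 gene, 932 several and 9211 none. All 24 columns were matched to a sample by its labels.

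Values were taken to log2 with no further normalization and fitted with limma 3.58.1 in R 4.3.3, with 1 mean per time point. Summaries used Python 3.11.15, numpy 2.4.6, pandas 2.3.3 and matplotlib 3.10.9. The fitting step was tested on simulated data with known changes. For a gene with several probe sets the one with the highest mean level was used. The members and lists were chosen with earlier results of these data known. Genes named from a list were mostly among its 2 rising and 2 falling genes of smallest adjusted p in a comparison. Not every such gene is named in the text. For each member the 5 genes with the highest r were named. The courses of Id2, Id3, Mymk and Ywhaz over all days, the control probe sets and the count of probe sets that moved like Myf5 were added after the values were seen. Alternatives covered the level filter (none, or 200), quantile normalization, a floor of 50, an intensity trend, linear intensities, the arrays in the fit, the replicate number as a block, each array left out and a fold threshold of 2.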

Additional observations from a re-analysis of the deposited data

How the results depend on the processing

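The calls of Myog and Myf5 on Day 2 over Day 1, Day 2 over Day 0 and Day 5 over Day -1 held under every alternative run on single genes. The 2-fold threshold was run on counts only, and the changes of Myog on Day 2 over Day 1 (1.52-fold) and of Myf5 on Day 2 over Day 0 (1.84-fold lower) and Day 5 over Day -1 (1.86-fold) are smaller than that. Replicate numbers did not pair the arrays throughout. The correlation of same-numbered deviations in neighbouring time points was -0.57 to 0.60. Of 21 arrays 10 correlated best with the array of their own number. On Day 1 over Day 0.25 replicates 2 and 3 did so (0.576 and 0.602) and replicate 1 did not (-0.187). The same held on Day 2 over Day 1 (0.549, 0.307 and -0.351). In 1 of 7 steps, Day 4 over Day 3, all 3 correlations were over 0.1 (0.355, 0.338 and 0.163), and there Myf5 kept its call with the block (0.67, adjusted p = 0.0331). With the replicate block all 30 member results were called or not called as before, and all 10 counts of called probe sets stayed within 1.5 times the main count. The log2 change of Myf5 on Day 2 over Day 1 was then -1.03 (adjusted p = 0.000453).

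Myf5 on Day 4 over Day 3 lost its call with no level filter (0.67, adjusted p = 0.0633), on linear intensities (a difference of 358, 0.0855) and on 6 arrays (0.67, 0.176), and Myod1 on Day 2 over Day 0 on 6 arrays (0.24, 0.0974). Myog gained a call on linear intensities on Day 3 over Day 2 (1626, 0.0100) and Day 5 over Day 2 (1047, 0.0244), and its uncalled change on Day 4 over Day 3 turned to -0.0396 under quantile normalization. On the second Myod1 probe set 6 changes turned sign, to -0.0138 (Day 0 over Day -1), -0.0113 (Day 2 over Day 0), -0.0333 (Day 2 over Day 1), 0.0159 (Day 4 over Day 3), -0.00012 (Day 5 over Day -1) and 0.0042 (Day 5 over Day 4). The cause was not tested.

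With each array left out, Myf5 ranged over 0.39 to 0.57 on Day 0 over Day -1, -0.0605 to 0.13 on Day 0.25 over Day 0 and 0.61 to 0.78 on Day 4 over Day 3. Myod1 ranged over 0.16 to 0.29 on Day 2 over Day 0, -0.0940 to 0.0366 on Day 4 over Day 3 and -0.00015 to 0.14 on Day 5 over Day 2, and Myog over -0.0196 to 0.0760 on Day 4 over Day 3. Counts of called probe sets ranged over 2246 to 4419 (Day 1 over Day 0.25, the low end without Day 0.25 replicate 1), 2255 to 7709 (Day 2 over Day 1, the high end without Day 2 replicate 2, and moved by over 1.5 times also without replicate 1 of either day or Day 1 replicate 2), 242 to 741 (Day 3 over Day 2, so moved without Day 2 replicate 1 or 3 or Day 3 replicate 2 or 3), 17 to 558 (Day 4 over Day 3, the high end without Day 4 replicate 2, and so moved without replicate 3 of either day or Day 3 replicate 2) and 113 to 937 (Day 5 over Day 4, the high end without Day 5 replicate 3, and so moved without any array of Day 4 or Day 5 replicate 2).

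With a change of at least 2-fold also asked for, the counts were 1373 (Day 0 over Day -1), 1100.0 (Day 0.25 over Day 0), 562 (Day 1 over Day 0.25), 1110.0 (Day 2 over Day 1), 201 (Day 3 over Day 2), 27 (Day 4 over Day 3), 129 (Day 5 over Day 4), 1957 (Day 2 over Day 0), 1070.0 (Day 5 over Day 2) and 4152 (Day 5 over Day -1). With no fold threshold but a fit of 6 arrays alone, the counts were 152 (Day 3 over Day 2), 2 (Day 4 over Day 3), 0 (Day 5 over Day 4) and 1914 (Day 5 over Day 2). The main fit called 444 higher and 406 lower, 65 and 91, 189 and 291, and 1905 and 2895 in the same order. Intensities near the floor, as for Myf6, limit what can be read there.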
